A study of Homo sapiens with 24 samples.

Results

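The oligodendrocyte precursor identity genes OLIG1, OLIG2, SOX10, NKX2-2, CSPG4, GPR17, LHFPL3 and LUZP2 were followed in cells of a diffuse midline glioma (DMG) treated with the PRMT5 inhibitor LLY-283 or with vehicle. The 8 genes were chosen by name, with earlier results of these data known. Each had its own row among the 58676 gene identifiers of the count table. They were examined in each of the 24 libraries, by treatment group and day. In the vehicle cultures OLIG1, OLIG2, NKX2-2 and CSPG4 rose between day 0 and day 5, where 38.9% of all genes tested were called. The call of CSPG4 was lost when certain single libraries were left out and in several other settings. At day 5, OLIG1 was 10.6% higher with LLY-283 than with vehicle and OLIG2 was at 0.915 times its vehicle level. OLIG1 was already 8.71% higher in the LLY-283 libraries of day 0, a difference that did not pass the test, and its change from day 0 to day 5 was not called different between the groups (log2 difference 0.03, adjusted p = 0.752 in edgeR's quasi-likelihood test). Both day 5 calls were lost in a fit shared by 22 libraries, those of day 7 among them, and when certain single libraries were left out. SOX10, GPR17 and LUZP2 had too few counts to be tested at day 5.

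Oligodendrocyte precursor cells are dividing glial cells of the brain and spinal cord that give rise to myelinating oligodendrocytes, and DMG cells resemble them in their gene expression. OLIG1 and OLIG2 are basic helix-loop-helix (bHLH) transcription factors of the lineage, and OLIG2 acts already in neural progenitors. SOX10 and NKX2-2 are transcription factors, of the SOX and homeodomain families, that carry precursors towards differentiation. CSPG4, also called NG2, is a transmembrane proteoglycan by which precursors are recognised in tissue, and GPR17 is a receptor of precursors that have begun to differentiate. LHFPL3 and LUZP2 are less studied genes that mark precursors in expression data of the brain. PRMT5 places symmetric dimethyl marks on arginine residues of histones and splicing factors.

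HSJD-DIPG-007 is an established cell line from a patient with DMG, grown as spheroids. It was cultured with LLY-283 at the dose called GI(40) in the labels, or with vehicle, and the medium with a fresh dose was replaced after 5 days. Each treatment group had 12 libraries, made up of 3 each for days 0 and 5, 2 for day 7 and 1 each for days 1, 2, 3 and 10. The study describes the libraries of a group as technical repeats, so p-values measure the spread between these libraries alone. For days 1 to 3, with 1 library per group and day, they measure how the treatment difference varied between days. Every library comes from the same cell line.

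Library totals lay between 13835205 and 23190369 estimated counts. PRMT5, the target of the inhibitor, was at 90.5 ± 2.83 counts per 1e6 (CPM; SD, n = 3) at day 5 with vehicle and at 82.2 ± 1.60 CPM with the inhibitor, which checks no label because an inhibitor acts on the protein. At day 7, the repeat 2 library labelled vehicle lay 47.3% of the way from the vehicle to the LLY-283 mean of day 5, over genes called at day 5 other than the 8 members, and that labelled LLY-283 lay at -7.80%. The LLY-283 library thus goes against its label, and the vehicle library lay between the means, slightly nearer that of vehicle. The libraries of day 5 chose the genes and set the scale, so their positions check no label. Outside day 5, the other vehicle libraries lay between -2.68% and 32.8%, except that of day 10 at 60.6%. The other LLY-283 libraries from day 3 on lay at 76.1% at day 3, 73.0% at day 7 repeat 1 and 96.2% at day 10. Day 7 values are given by label and the time course with and without the repeat 2 libraries of day 7. The fit shared by 22 libraries, used below as an alternative, includes these repeat 2 libraries by label. It was not run without them, so their part in the calls lost there was not tested. The vehicle library of day 5 repeat 3 stood apart by 52.7 CPM of the collagen gene COL1A1, against 8.27 CPM in repeat 1 and 7.71 CPM in repeat 2, scaled by library total alone.

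OLIG1 (ENSG00000184221) and OLIG2 (ENSG00000205927) lie side by side on chromosome 21 of GRCh38, on the plus strand, at positions 33070141 to 33072413 and 33025935 to 33029196. A stretch of 40945 bases separates the end of OLIG2 from the start of OLIG1. SOX10 (ENSG00000100146) lies on chromosome 22 at 37970686 to 37987422, NKX2-2 (ENSG00000125820) on chromosome 20 at 21511017 to 21514064 and CSPG4 (ENSG00000173546) on chromosome 15 at 75674322 to 75712848, each on the minus strand. GPR17 (ENSG00000144230) lies on chromosome 2 at 127645864 to 127652639, LHFPL3 (ENSG00000187416) on chromosome 7 at 104328603 to 104908561 and LUZP2 (ENSG00000187398) on chromosome 11 at 24496970 to 25082638, each on the plus strand. Exons of OLIG1, SOX10, NKX2-2, CSPG4 and GPR17 overlap exons annotated on the opposite strand, and whether strand was used in counting is not given in the sources used here.

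bHLH factors, OLIG1 and OLIG2 among them, bind E-boxes, the letters CANNTG, a pattern that reads the same on both strands. The 250 bases before the start are shown for CSPG4, the most abundant member, and for LHFPL3, a member of few counts. Each of these windows held 2 E-boxes. The sequences are those of RefSeq for GRCh38.p14, printed 5′ to 3′ on the strand of the gene, with the E-boxes in capitals. The CSPG4 window is chr15:75712849-75713098 on the minus strand and the LHFPL3 window is chr7:104328353-104328602 on the plus strand.
CSPG4: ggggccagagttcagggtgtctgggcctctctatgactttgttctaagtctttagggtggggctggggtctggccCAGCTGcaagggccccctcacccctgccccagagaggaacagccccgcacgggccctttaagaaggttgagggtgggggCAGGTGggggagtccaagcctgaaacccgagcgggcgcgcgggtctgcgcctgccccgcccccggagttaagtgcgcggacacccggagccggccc
LHFPL3: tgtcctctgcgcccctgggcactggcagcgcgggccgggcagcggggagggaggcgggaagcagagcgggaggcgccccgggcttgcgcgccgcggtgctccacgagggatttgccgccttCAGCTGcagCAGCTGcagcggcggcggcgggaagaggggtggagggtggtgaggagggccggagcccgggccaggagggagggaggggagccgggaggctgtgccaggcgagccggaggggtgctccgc
The E-boxes read CAGCTG and CAGGTG for CSPG4 and CAGCTG at both places for LHFPL3. Of 35116 promoter windows of this length, 61.8% held at least 1 E-box and 28.3% at least 2. The GPR17 and LUZP2 windows held 0. For NKX2-2 both RefSeq starts lay 1104 bases or more from that of GENCODE, and no window is shown. Its windows held 0 and 3 E-boxes. OLIG1, OLIG2 and SOX10 had no window in the promoter set used.

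The members fell into a group of 4 that were well measured and a group of 4 near the limit of detection. CSPG4 was the most abundant, with between 17975 and 29290 counts in a library. OLIG2 had between 3339 and 8487 counts, OLIG1 between 1791 and 4420 and NKX2-2 between 277 and 541. Against these, LHFPL3 had between 8 and 37 counts, SOX10 between 0 and 11, LUZP2 between 2 and 8 and GPR17 between 0 and 7. The highest SOX10 count, 11, thus stood beside the lowest OLIG1 count, 1791.

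Levels of different genes were compared per kilobase of merged exon length, which makes CPM comparable between long and short transcripts. The median over 24 libraries was 149.5 CPM per kilobase for CSPG4, 94.3 for OLIG2, 71.2 for OLIG1 and 10.53 for NKX2-2. The ranges of CSPG4, from 138.2 to 164.9 CPM per kilobase, and of OLIG2, from 70.6 to 114.0, did not overlap. The ranges of OLIG2 and of OLIG1, from 54.5 to 100.2 CPM per kilobase, did overlap across libraries, although OLIG2 had the higher count in each library. Per kilobase they nearly met in LLY-283 day 5 repeat 3, at 97.2 for OLIG1 and 97.3 for OLIG2. LHFPL3 had a median of 0.194 CPM per kilobase, SOX10 of 0.0398, GPR17 of 0.0380 and LUZP2 of 0.0232, and the order of the last 3 is within the spread between libraries.

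**Figure D1:**
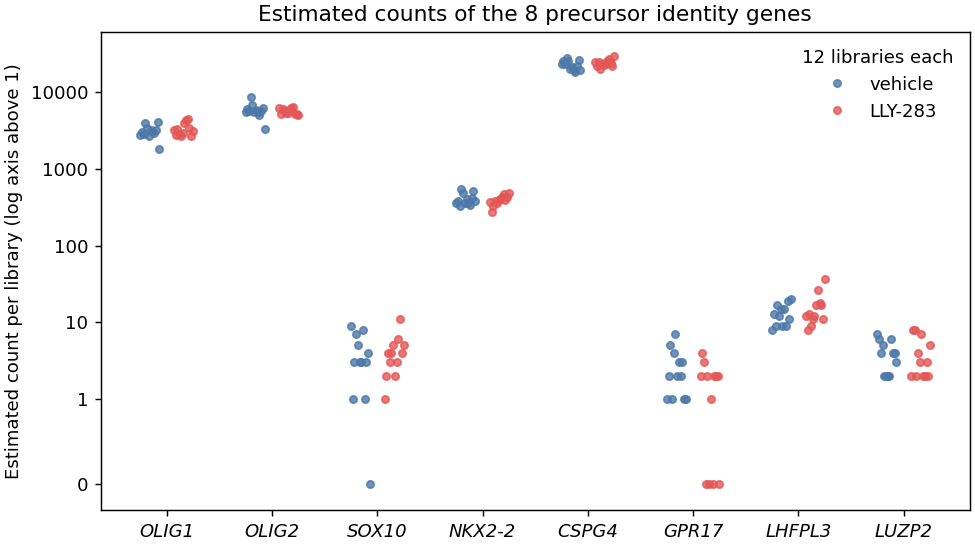
Estimated counts of the 8 genes, with each point a library, 12 with vehicle and 12 with LLY-283. The vertical axis is logarithmic above 1 count and linear below. CSPG4, OLIG2, OLIG1 and NKX2-2 lie at 277 counts or more in each library, whereas SOX10, GPR17, LHFPL3 and LUZP2 lie at or under 37.

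Summed over the 24 libraries, SOX10 had 97 counts, which is 0.219 CPM with an exact Poisson 95% interval of 0.177 to 0.267. GPR17 had 50 counts, or 0.113 CPM (0.0837 to 0.149), and LUZP2 95 counts, or 0.214 CPM (0.173 to 0.262). These intervals cover counting error alone. SOX10 was at 0 counts in 1 library and GPR17 in 4, where a count of 0 allows up to 3 counts. Members of the SOX family share sequence, and 0.409% of the 31-base words of SOX10 transcripts also occur in SOX9 or SOX21, so that part of its few counts cannot be assigned with certainty. LUZP2 shared 1.41% of its words with 1142 other genes, and its few counts carry the same doubt. The share was 0.764% for LHFPL3 and 0.956% for NKX2-2. For CSPG4, 18.1% of the words are shared, largely with its pseudogenes, of which CSPG4P12 had a median of 159.5 counts and CSPG4P10 of 137, against 23063.5 for CSPG4. OLIG1, OLIG2 and GPR17 shared 0 words with other genes, and OLIG1 and OLIG2 shared 0 with each other.

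Time in culture was the first comparison, since the vehicle cultures show how the genes move without inhibitor. In vehicle, OLIG1, OLIG2, NKX2-2 and CSPG4 rose from day 0 to day 5, so that 4 of 5 tested members, with LHFPL3 as the fifth, were called higher. Of 17106 genes tested, 38.9% were called in either direction and 22.2% higher, at an adjusted p under 0.01. OLIG1 was at 140.1, 145.0 and 147.0 CPM at day 0 and at 198.2, 203.1 and 218.4 CPM at day 5. The log2 fold change was 0.50 (SE 0.040, adjusted p = 1.93e-11, edgeR's quasi-likelihood test), and the groups did not overlap.

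OLIG2 was at 279.4, 289.1 and 289.1 CPM in the vehicle libraries of day 0 and at 363.3, 357.1 and 368.4 CPM at day 5. Its log2 fold change was 0.33 (SE 0.035, adjusted p = 8.43e-09). NKX2-2, the homeodomain factor, was at 18.1, 18.6 and 16.8 CPM at day 0 and at 25.4, 23.6 and 25.2 CPM at day 5, a log2 fold change of 0.46 (SE 0.072, adjusted p = 5.00e-06). CSPG4 changed least, from 1164, 1221 and 1174 CPM to 1322, 1286 and 1328 CPM, with a log2 fold change of 0.13 (SE 0.037, adjusted p = 0.00463). All 4 genes were higher in each library of day 5 than in each of day 0, and the share of all genes so separated is not given here. The call of CSPG4 was lost without repeat 2 or repeat 3 of day 0 or repeat 1 or repeat 3 of day 5 (adjusted p between 0.0111 and 0.0202), with a block for the repeat number (0.0126), without the filter on low counts (0.0118), with at least 10 counts in every library (0.0129) and in the fit shared by 22 libraries (0.0208). It was also lost with scaling by library size alone, where the value was 0.07 (adjusted p = 0.0445).

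The same 4 genes rose with LLY-283, where 42.4% of 17341 tested genes were called in either direction and 22.9% higher. OLIG1 went from 156.4, 154.8 and 162.6 CPM at day 0 to 227.9, 224.3 and 220.9 CPM at day 5, a log2 fold change of 0.52 (SE 0.033, adjusted p = 1.43e-12). NKX2-2 went from 18.1, 15.6 and 16.3 CPM to 23.3, 22.7 and 23.5 CPM, a log2 fold change of 0.49 (SE 0.070, adjusted p = 2.03e-06). CSPG4 went from 1196, 1231 and 1214 CPM to 1367, 1346 and 1351 CPM, a log2 fold change of 0.18 (SE 0.029, adjusted p = 1.53e-05). None of these groups overlapped between days, and the share over all genes is again not given.

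OLIG2 rose less with the inhibitor, from 306.0, 293.4 and 299.7 CPM at day 0 to 335.7, 325.7 and 317.4 CPM at day 5. Its log2 fold change was 0.14 (SE 0.031, adjusted p = 0.000514). In a fit shared by 22 libraries the calls of OLIG2 (adjusted p = 0.0295) and CSPG4 (0.0107) under LLY-283 were lost. LHFPL3, with 12, 8 and 13 counts at day 0 and 17, 26 and 18 at day 5, had a log2 fold change of 0.95 (SE 0.34) and an adjusted p of 0.0210, above the threshold of 0.01.

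**Figure D2:**
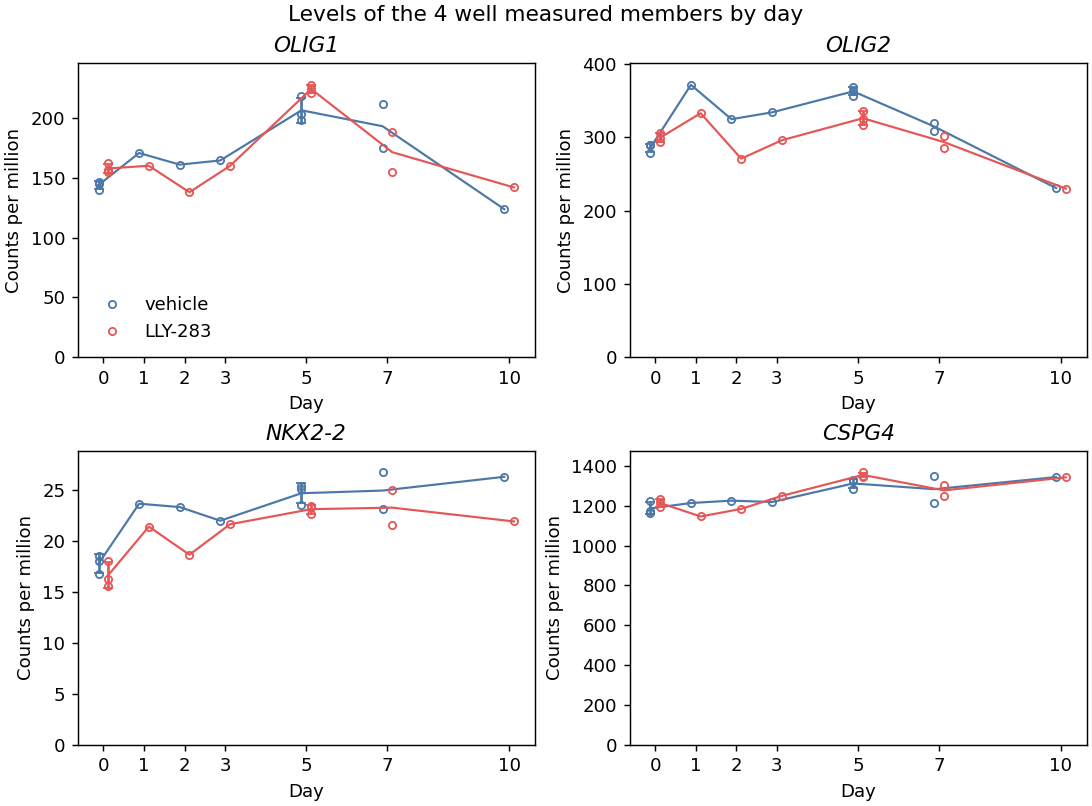
Levels of OLIG1, OLIG2, NKX2-2 and CSPG4 in CPM with TMM normalization by day, with each open circle a library, lines through the group means and bars for the SD where a group has 3 libraries. OLIG1 is highest at day 5 and OLIG2 lowest at day 10 in both groups, whereas CSPG4 stays between 1146 and 1367 CPM. Day 7 is drawn by label.

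The change from day 0 to day 5 was then compared between the treatment groups, which takes account of the difference at day 0 and shares its libraries with the comparisons above. OLIG2 was the 1 member of 5 tested whose change differed, against 14.9% of 18369 genes called in either direction and 8.15% called lower. Its change with LLY-283 was smaller than with vehicle by 0.18 on the log2 scale (log2 difference -0.18, SE 0.046, adjusted p = 0.00406). For OLIG1 the difference of the changes was 0.03 (SE 0.052, adjusted p = 0.752), for NKX2-2 0.04 (SE 0.097, adjusted p = 0.814) and for CSPG4 0.05 (SE 0.045, adjusted p = 0.415). The OLIG2 call was lost when a single library was left out, namely repeat 1 or repeat 3 of the day 5 vehicle group, repeat 1 or repeat 3 of the day 0 LLY-283 group, or repeat 2 or repeat 3 of the day 5 LLY-283 group, with adjusted p between 0.0101 and 0.0171 in these fits. It was lost as well without the filter on low counts (-0.18, adjusted p = 0.0211) and in the shared fit (-0.22, adjusted p = 0.0320). Over the 12 fits without a library the difference lay between -0.22 and -0.17.

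Day 5 was the day on which the study compared the treatment groups. OLIG1 was higher and OLIG2 lower with LLY-283, so that 2 of 5 tested members were called, against 26.1% of 16491 genes called in either direction. From the day 5 values above, the 3 LLY-283 libraries of OLIG1, between 220.9 and 227.9 CPM, lay above the 3 vehicle libraries, between 198.2 and 218.4 CPM. The log2 fold change was 0.15 (SE 0.038, adjusted p = 0.00327). For OLIG2 the 3 LLY-283 libraries, between 317.4 and 335.7 CPM, lay below the 3 vehicle libraries, between 357.1 and 368.4 CPM, with a log2 fold change of -0.13 (SE 0.034, adjusted p = 0.00347). The signs of these neighbouring genes were opposite.

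NKX2-2 averaged 24.7 ± 0.992 CPM (SD, n = 3) in the vehicle group of day 5 and 23.2 ± 0.437 CPM in the LLY-283 group, a log2 fold change of -0.07 (SE 0.067, adjusted p = 0.457). CSPG4 was at 1312 ± 22.8 CPM and 1355 ± 11.1 CPM (SD, n = 3), a log2 fold change of 0.07 (SE 0.034, adjusted p = 0.103). Both kept their treatment groups apart without passing the test, and groups of libraries did not overlap for 4 of 5 members and for 46.3% of the genes tested. LHFPL3 had 9, 15 and 9 counts with vehicle and 17, 26 and 18 with LLY-283, a log2 fold change of 0.58 (SE 0.35, adjusted p = 0.210). With scaling by library size alone CSPG4 was called higher (0.10, adjusted p = 0.00912) and the call of OLIG2 was lost (-0.10, adjusted p = 0.0119).

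The day 5 calls rested on few libraries. The call of OLIG1 was lost without vehicle day 5 repeat 1 (0.10, adjusted p = 0.0808), vehicle repeat 2 (0.12, adjusted p = 0.0495), LLY-283 repeat 2 (0.14, adjusted p = 0.0198) or LLY-283 repeat 3 (0.15, adjusted p = 0.0105), and in the fit shared by 22 libraries (0.12, adjusted p = 0.233). That of OLIG2 was lost without vehicle repeat 3 (-0.12, adjusted p = 0.0167), LLY-283 repeat 2 (-0.13, adjusted p = 0.0181) or LLY-283 repeat 3 (-0.12, adjusted p = 0.0250), without the filter on low counts (-0.13, adjusted p = 0.0112) and in the shared fit (-0.15, adjusted p = 0.0157). Without vehicle day 5 repeat 3, the library with many collagen counts, OLIG1 had a log2 fold change of 0.18. The direction of both genes was the same in each of these fits.

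Day 0 libraries were labelled by treatment group although no treatment time had passed, and they give the difference present at the start. None of 5 tested members was called, and 0.0169% of 17780 genes were, a total of 3. OLIG1 was nonetheless higher in each of the 3 LLY-283 libraries than in each of the 3 vehicle libraries, by a log2 fold change of 0.12 (SE 0.033, unadjusted p = 0.00142 and adjusted p = 0.417 in edgeR's quasi-likelihood test). That is close to its day 5 value of 0.15. OLIG2 was higher by 0.06 (SE 0.031, adjusted p = 0.871) at day 0, opposite in sign to day 5. Its groups of day 0 did not overlap either, so that 2 of 5 tested members were separated, and the share over all genes is not given here.

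**Figure D3:**
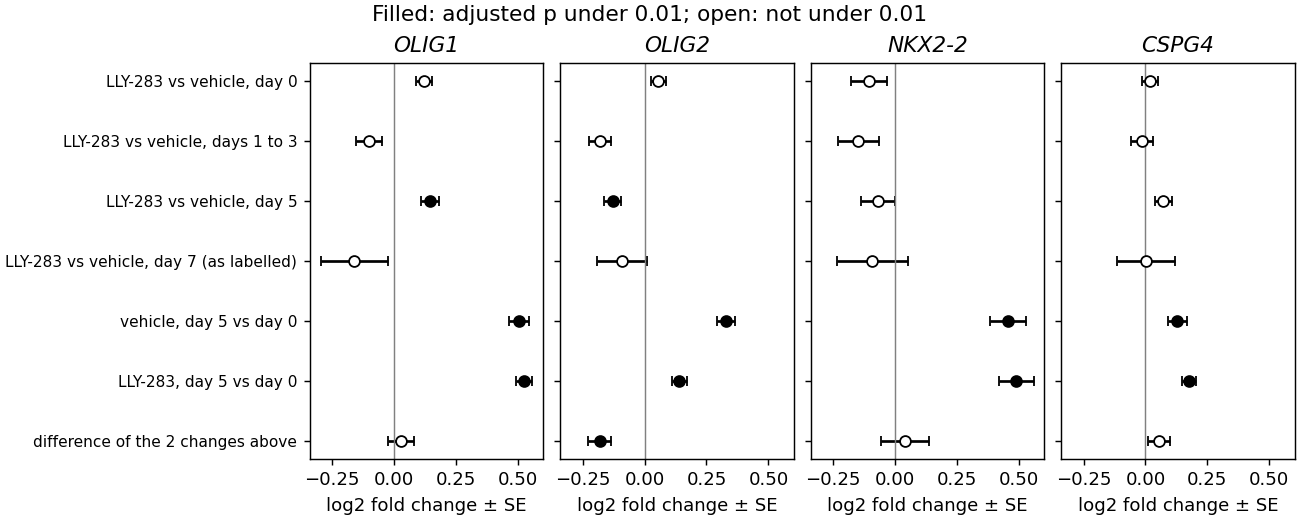
Log2 fold changes with their standard errors from edgeR for OLIG1, OLIG2, NKX2-2 and CSPG4 in 7 comparisons, with filled circles for an adjusted p under 0.01. The largest values, 0.50 and 0.52, are those of OLIG1 between day 5 and day 0, and the 2 treatment values of OLIG1 at day 0 and day 5, 0.12 and 0.15, lie close together. OLIG2 has the 1 filled circle in the bottom row, at -0.18.

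The ratio of OLIG1 to OLIG2 counts needs no scaling between libraries, and it was chosen after the values were seen and is given without a test. At day 0 it was 0.501, 0.501 and 0.508 in the vehicle libraries and 0.511, 0.528 and 0.542 in the LLY-283 libraries. At day 5 it was 0.546, 0.569 and 0.593 with vehicle and 0.679, 0.689 and 0.696 with LLY-283. The ratio was therefore higher at day 5 than at day 0 in both treatment groups and highest in the LLY-283 libraries of day 5.

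On the days with 1 library per group the ratio was 0.460 with vehicle and 0.481 with LLY-283 at day 1. It was then 0.496 and 0.509 at day 2, 0.492 and 0.540 a day later, and 0.536 and 0.617 at the end of the course on day 10. On each of these days the LLY-283 library had the higher ratio. At day 7 it was 0.565 in vehicle repeat 1 and 0.660 in LLY-283 repeat 1. The library labelled vehicle repeat 2 was at 0.661 and that labelled LLY-283 repeat 2 at 0.512, the reverse of repeat 1, as was their position over the genes called at day 5.

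**Figure D4:**
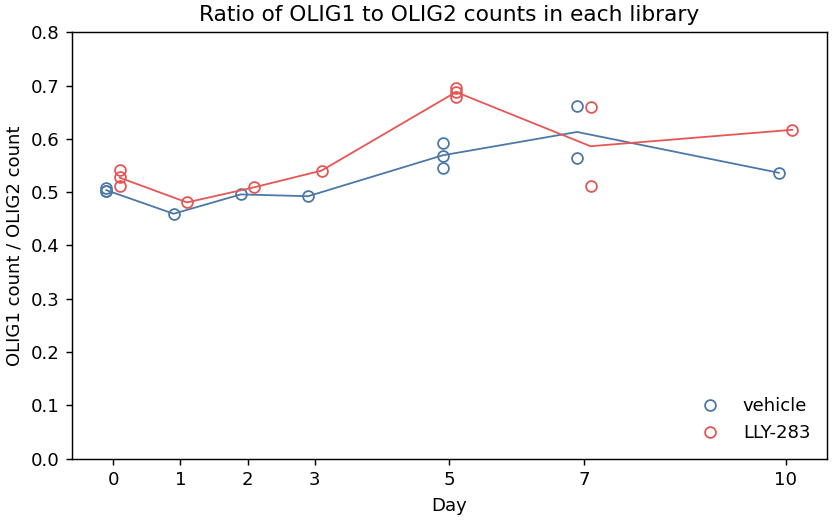
Ratio of the OLIG1 count to the OLIG2 count in each of 24 libraries by day, with lines through the group means and day 7 drawn by label. The 3 LLY-283 libraries of day 5 lie between 0.679 and 0.696, above the 3 vehicle libraries, between 0.546 and 0.593, and the 2 groups of day 7 cross.

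Days 1, 2 and 3 had 1 library of each group and were tested together with day as a block. The spread in this test is that of the treatment difference between days, which are not repeats of 1 condition. None of 5 tested members passed, and 0.00% of 17240 genes did (0 by edgeR, 12 by DESeq2, 2879 at an unadjusted p under 0.05). OLIG2 was at 371.8, 324.9 and 334.3 CPM in the vehicle libraries of days 1, 2 and 3 and at 333.1, 271.0 and 296.2 CPM in the LLY-283 libraries. It was lower with LLY-283 on each of the 3 days, with a log2 fold change of -0.18 (SE 0.046, adjusted p = 0.135). Without day 3, on days 1 and 2 alone, the value was -0.20 (adjusted p = 0.000207). That fit, with 1 library per group and day, had little from which to estimate the spread. It called 256 of 17747 genes, where the fit of all 3 days called 0. The other settings gave between -0.20 and -0.14 with adjusted p between 0.0113 and 0.520.

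OLIG1 was at 170.8, 161.1 and 164.6 CPM with vehicle on days 1, 2 and 3 and at 160.2, 138.0 and 160.1 CPM with LLY-283, a log2 fold change of -0.10 (SE 0.053, adjusted p = 0.361). NKX2-2 was at 23.7, 23.4 and 22.03 CPM and at 21.4, 18.7 and 21.7 CPM, a log2 fold change of -0.15 (SE 0.082, adjusted p = 0.392). The LLY-283 library of day 2, the lowest for each of these genes among the 6, also had 32.4 CPM of COL1A1 against 9.86 CPM in the vehicle library of that day, and the part of this in the result was not tested.

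At day 7, none of 5 tested members was called by label, as was 0.00% of 16826 genes (0 by edgeR, 3 by DESeq2, 236 at an unadjusted p under 0.05). OLIG1 was at 174.7 and 211.8 CPM in the libraries labelled vehicle and at 188.2 and 154.8 CPM in those labelled LLY-283, and the groups overlapped. Vehicle repeat 1 of day 7 also had 30.4 CPM of COL1A1, scaled by library total, against 7.35 to 9.69 CPM in the other 3 libraries, and the part of this in the day 7 values was not tested. OLIG2 was at 309.3 and 320.3 CPM and at 285.2 and 302.1 CPM, a log2 fold change of -0.09 (SE 0.10, adjusted p = 0.999), without overlap. It was the 1 of 5 tested members so separated, with 2 libraries in each group, and the share over all genes is not given here. In the test of treatment with day over 22 libraries none of 6 tested members passed, and 0.0289% of 20756 genes did. Without both libraries labelled day 7 repeat 2, OLIG1 (adjusted p = 0.00712) and OLIG2 (adjusted p = 0.00417) passed, and 2002 genes were called in place of 6.

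By day 10, with 1 library of each group and no test, OLIG2 had come down to 230.9 CPM with vehicle and 230.1 CPM with LLY-283, the lowest levels among the 24 libraries. OLIG1 was at 123.8 CPM with vehicle, its lowest level, and at 142.0 CPM with LLY-283. NKX2-2 was at 26.3 CPM with vehicle, above its 3 vehicle libraries of day 5, and at 21.96 CPM with LLY-283, below its 3 LLY-283 libraries of day 5. CSPG4 was at 1344 CPM with vehicle, again above day 5, and at 1343 CPM with LLY-283, just under the lowest LLY-283 library of day 5, 1346 CPM. LHFPL3 had its highest counts at day 10, 20 with vehicle and 37 with LLY-283, or 1.38 and 1.70 CPM, against 0.402 to 0.643 CPM in the 6 libraries of day 0. The 2 bHLH factors and the surface proteoglycan thus had different courses, and their Pearson correlation over 24 libraries, whose points share days and treatments, was 0.71 for OLIG1 with OLIG2, 0.59 for OLIG1 with CSPG4 and 0.01 for OLIG2 with CSPG4.

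The members too low to test at day 5 were described by their counts. Of these, SOX10 alone was tested in the time course over 22 libraries, and it did not pass (edgeR, adjusted p = 0.849). SOX10 had 9, 1 and 3 counts in the vehicle libraries of day 0 and 1, 2 and 4 in the LLY-283 libraries, and 3, 8 and 1 against 2, 3 and 6 at day 5. GPR17 had 2, 3 and 2 counts with vehicle and 1, 0 and 2 with LLY-283 at day 5. LUZP2 had 2, 2 and 6 and 7, 2 and 2. The groups overlapped for SOX10 and LUZP2 and touched for GPR17, and a change in any of them was not detectable at this depth.

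Other genes of the lineage were counted in lists beside the members. These lists were chosen with earlier results of these data known. In each, the genes of smallest p in the day 5 test were named, so their values describe the data and lend no independent support. Among 24 further regulators of the lineage, 19 could be tested at day 5, of which 7 were called higher with LLY-283 and 1 lower, where 26.1% of all genes tested were called, 1987 higher and 2317 lower. Their median log2 fold change was 0.10, against 0.02 for all genes. PDGFRA, the receptor by which platelet-derived growth factor drives precursor division, went from 159.0 ± 2.74 CPM in the vehicle to 207.7 ± 7.78 CPM in the LLY-283 group (0.41 on the log2 scale, SE 0.037, adjusted p = 9.39e-10). SOX9, a factor of glial progenitors, was at 258.6 ± 7.79 and 343.0 ± 3.499 CPM (0.43, adjusted p = 1.45e-10), and PROX1 at 17.1 ± 0.911 and 27.1 ± 2.28 CPM (0.70, adjusted p = 5.50e-08), with SD over 3 libraries each.

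SOX8, SOX9 and SOX10 belong to the same family, and SOX10 was near the floor while SOX9 and SOX8 were not. SOX8, named after its value was seen, was the 1 regulator called lower. It was at 52.5 ± 2.49 CPM in the vehicle and 45.4 ± 1.40 CPM in the LLY-283 group (SD, n = 3). The log2 fold change was -0.18 (SE 0.053, adjusted p = 0.00750 by edgeR). At day 0 it was already at -0.14 (SE 0.075, adjusted p = 0.868). The change of SOX8 from day 0 to day 5 was not called different between the groups (log2 difference -0.04, SE 0.091, adjusted p = 0.786). From day 0 to day 5 in vehicle, 14 of 19 tested regulators were called higher and 2 lower, where 22.2% of all genes tested were called higher and 38.9% in either direction, with PDGFRA at a log2 fold change of 0.98 (SE 0.038). The 4 well measured members ranged from 0.13 to 0.50 in that comparison.

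Of 24 further markers of precursors, 18 could be tested at day 5, and 12 were called higher with LLY-283 and 0 lower, with a median log2 fold change of 0.30. Over all 16491 genes tested, 26.1% were called in either direction, 1987 higher and 2317 lower. SCRG1, a small secreted protein, went from 17.6 ± 0.662 to 36.9 ± 2.77 CPM (1.10, SE 0.068, adjusted p = 9.33e-13). NCAN, the proteoglycan neurocan, went from 404.1 ± 9.88 to 582.2 ± 28.3 CPM (0.55, SE 0.036, adjusted p = 2.29e-12). GNG7 and MAP2, a subunit of G proteins and a protein of microtubules, had log2 fold changes of 0.61 (adjusted p = 2.07e-10) and 0.31 (adjusted p = 2.42e-08). Where these markers were called higher, the 4 well measured members ranged from -0.13 to 0.15.

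Of 16 genes of committed precursors, 11 could be tested at day 5, where 26.1% of all genes tested were called. Among the 11, 4 were called higher with LLY-283 and 0 lower. They were CD9 (0.27, adjusted p = 2.26e-06), ITPR2 (0.21, adjusted p = 0.000140), GPR37 (0.99, adjusted p = 0.000298) and SIRT2 (0.19, adjusted p = 0.00943). When the change from day 0 to day 5 was compared between the groups by edgeR, 1 of 12 tested was called, CD9 (adjusted p = 0.00159). ITPR2 (adjusted p = 0.0152), GPR37 (0.0488) and SIRT2 (0.0284) did not pass there. Of 16 genes of mature oligodendrocytes, 9 could be tested, and 1 was called higher and 0 lower, beside the same share of all genes. Their median log2 fold change was 0.28, against 0.02 for all genes. UGT8, an enzyme of myelin lipid synthesis, was at 34.3 ± 0.586 and 36.7 ± 2.97 CPM (0.12, adjusted p = 0.130), TF at 3.00 ± 0.346 and 3.56 ± 0.656 CPM (adjusted p = 0.284) and ASPA at 1.35 ± 0.485 and 1.66 ± 0.222 CPM (adjusted p = 0.403). MBP, MAG, MAL, OPALIN, ERMN, CLDN11, FA2H and CARNS1 were under 1 CPM in each of the 24 libraries. The comparison of the changes called 5 of 19 regulators, 9 of 19 further precursor markers and 1 of 9 genes of mature oligodendrocytes higher. Of the astrocyte genes below it called 5 of 11 higher, and 0 genes of these lists were called lower. Of all 18369 genes tested there, 14.9% were called, 1245 higher and 1497 lower.

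**Figure D5:**
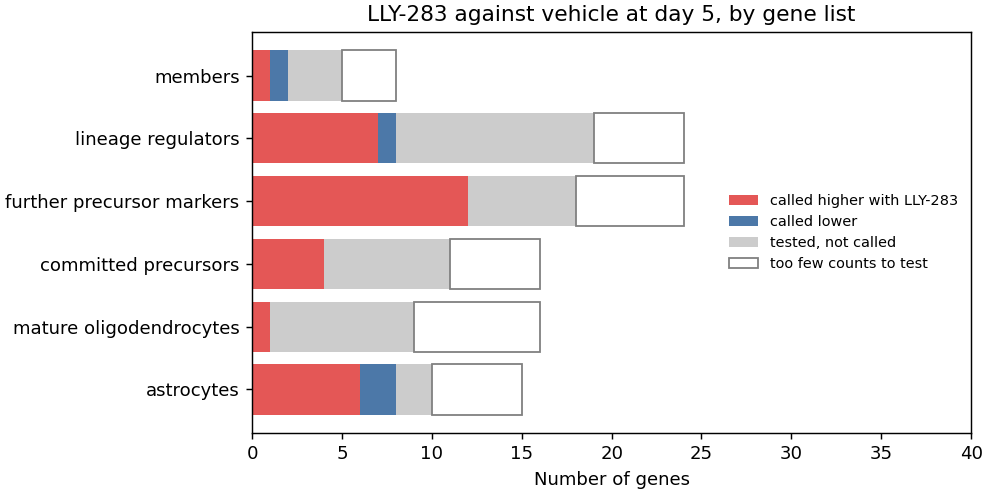
Number of genes in each list that were called higher, called lower or not called with LLY-283 against vehicle at day 5 (edgeR, adjusted p under 0.01), or had too few counts. Of the members 1 is higher and 1 lower, and of the further precursor markers 12 are higher and 0 lower, where 26.1% of all genes tested were called.

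Among 15 astrocyte genes, 10 could be tested, and 6 were called higher and 2 lower, with a median log2 fold change of 0.56. Of all genes tested at day 5, 26.1% were called. CHI3L1, a secreted glycoprotein, went from 606.6 ± 11.3 to 1484 ± 62.1 CPM (1.32, SE 0.038, adjusted p = 8.27e-20), and AGT, angiotensinogen, from 22.8 ± 1.09 to 54.0 ± 4.80 CPM (1.27, SE 0.065, adjusted p = 4.00e-14). CLU, clusterin, had a log2 fold change of 0.69 (adjusted p = 7.11e-14), and SOX9 is in this list as well. SLC1A3 and GJA1, named after their values were seen, were those called lower. AQP4 and GJB6, which define mature astrocytes, had at most 3 counts in each library. Without vehicle day 5 repeat 3, a setting added after the data were seen, 20.8% of 17237 genes were called, 1575 higher and 2002 lower. In that fit 7 of 19 regulators, 10 of 18 further precursor markers, 3 of 11 genes of committed precursors and 1 of 9 of mature oligodendrocytes were called higher and 0 lower, and of 11 astrocyte genes 6 were called higher and 2 lower.

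Markers of cells outside the glial lineage were checked in the same libraries, with sums of CPM scaled by library total. The sum over 10 microglia genes lay between 0.539 and 2.63 CPM in a library, with AIF1, CX3CR1, P2RY12, C1QA and C1QB at 3 counts or fewer in each library, and the leading gene was TMEM119. The sum over 8 endothelial genes lay between 5.01 and 26.5 CPM, led by PECAM1. The sum over 13 neuronal genes, led by TUBB3, lay between 175.2 and 178.0 CPM in the vehicle and between 215.7 and 238.4 CPM in the LLY-283 libraries of day 5. TUBB3 itself was lower with LLY-283, at 58.7 ± 2.23 CPM with vehicle and 49.0 ± 2.84 CPM with the inhibitor (SD, n = 3; log2 fold change -0.23, adjusted p = 0.00107). The sum over 10 fibroblast genes, led by ACTA2, lay between 138.9 and 248.1 CPM in the vehicle and between 237.6 and 254.7 CPM in the LLY-283 libraries of day 5, so that the groups overlapped. Without vehicle day 5 repeat 3 the median log2 fold change of the fibroblast genes moved from 0.21 to 0.69, and 4 of 9 were called higher in place of 3. In that fit 20.8% of all genes tested were called. The neuronal sums did not overlap between the treatment groups, as with OLIG1 and OLIG2. Nor did the astrocyte sums, led by CHI3L1, between 1391 and 1410 CPM with vehicle and between 2398 and 2551 CPM with LLY-283. CHI3L1 alone went from 606.6 to 1484 CPM with TMM normalization, while SLC1A3 and GJA1 of that list were called lower. Sums over the 16 genes of mature oligodendrocytes did not overlap either. They lay between 129.8 and 138.9 CPM with vehicle and between 152.5 and 160.3 CPM with LLY-283. The part of these sums in the results was not tested. At day 5, 3 of 8 tested neuronal genes were called higher and 1 lower, 3 of 9 fibroblast genes were called higher, and 0 of 1 microglia gene and 0 of 1 endothelial gene were called. Over all 16491 genes tested, 26.1% were called in either direction. In bulk RNA, fewer cells of a kind and less RNA per cell cannot be told apart.

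Genes with a pattern most like that of a member were ranked by Pearson correlation of log2 CPM over 24 libraries, among 20876 genes that passed the filter, as a description of libraries that share days, treatments and depth. For OLIG2 these were PCDH17 (0.88), AIF1L (0.87) and RCC2 (0.87). The gene most like OLIG1 was TCF7L1 (0.92), most like NKX2-2 PLIN3 (0.93), and most like CSPG4 ZSWIM4 (0.93). LHFPL3 was most like TMCC1 (0.86). For SOX10, at a median of 3.5 counts, ENSG00000285928 (0.80), ENSG00000270898 (0.71) and DEFB109F (0.68), all under 1 CPM in the median, ranked highest.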

How the data were processed

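RNA of HSJD-DIPG-007 cells was sequenced in 24 libraries. Trimmed reads were pseudoaligned by the authors to the hg38 transcriptome with kallisto, whose version is not given in the sources used here. The deposited values are estimated counts per gene, rounded to whole numbers and without scaling for depth. Libraries were made with a poly(A) selection and a directional kit. Of 58676 gene identifiers, 58207 were matched to a symbol of GENCODE release 44.

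Counts were tested with edgeR 4.0.16 in R 4.3.3 (TMM normalization, filterByExpr by group, robust quasi-likelihood test, Benjamini-Hochberg adjustment over all genes tested, adjusted p under 0.01). Each comparison used its own libraries, with day as a block for days 1 to 3, and the time course was tested as treatment by day over 22 libraries. SE was taken as the log2 fold change over the root of F. Levels are CPM with TMM unless scaling by library total is named. The study used DESeq2, run here (1.42.0) as an alternative. Others were its size factors, scaling by library size alone, omission of the filter, a minimum of 10 counts in every library, an adjusted p under 0.05, a block for the repeat number, a fit shared by 22 libraries, and leaving out each library or day. Leaving out vehicle day 5 repeat 3 from the list counts was added after the data were seen.

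The 8 members and the gene lists were chosen with earlier results of these data known. In each glial list the 4 tested genes of smallest p at day 5 and PDGFRA were named, and in lists of other cell types the gene of highest mean level. A pair of genes that this rule names is not reported here. Repeat numbers did not pair libraries, with correlations of the deviations of same-numbered libraries between -0.0764 and 0.0531. On simulated data, the day 5 fit over 16491 genes recovered 76% of genes set to differ by 1 (log2) and 68% of genes set to differ by 0.5. Differences as small as those of the 4 well measured members at day 5, from -0.13 to 0.15, were not simulated.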

Additional observations from a re-analysis of the deposited data

Results flagged for a closer look

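OLIG2 was the member whose change from day 0 to day 5 differed between the treatment groups by a test of the difference itself. The change was smaller with LLY-283, by a log2 difference of -0.18 (edgeR, adjusted p = 0.00406). The call was lost in 6 of 12 fits without a library, without the filter on low counts and in the fit shared by 22 libraries, with an adjusted p of up to 0.0320. At day 5 each LLY-283 library was lower than each vehicle library, where 46.3% of all genes tested were separated in either direction. At day 0 each LLY-283 library was higher, a difference that was not called (edgeR, adjusted p = 0.871). The share of all genes separated at day 0 is not given. No group held 4 or more libraries, so no search for an outlying library within a group was possible.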

How the results depend on the processing

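The rises of OLIG1, OLIG2 and NKX2-2 in vehicle between day 0 and day 5 kept their call under every alternative run. The number of members called at day 5 was 2, which became 1 without the filter on low counts, 0 in the fit shared by 22 libraries and 0 to 2 without a library. It moved from 4 to 2 for LLY-283 day 5 against day 0 in the shared fit. In vehicle it moved from 4 to 3, by the loss of CSPG4, by library size alone, without the filter, with at least 10 counts in every library, with the block and in the shared fit. For the difference of the changes it moved from 1 to 0 without the filter, to 0 in the shared fit and to between 0 and 1 without a library. At days 1 to 3 it was 0, and 0 to 1 without a day. For the time course it was 0, and 1 with DESeq2, 1 without the filter, 2 without both libraries labelled day 7 repeat 2 and 2 without the 4 libraries of day 7. The causes were not tested. Of all genes at day 5, 4381 of 37305 were called without the filter and 2042 of 20756 in the shared fit. Without a library, 3193 to 4423 were called. LLY-283 day 5 against day 0 had 5493 of 20756 in the shared fit. The vehicle settings, in the order named, called 6584 of 17106, 6777 of 38238, 6612 of 14704, 6490 of 17106 and 5095 of 20756. The difference of the changes had 2859 of 41197 without the filter and 51 of 20756 in the shared fit. Without a library it had 2126 to 3000.

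Signs turned for values near 0 that passed no test. CSPG4 at days 1 to 3 was at 0.0083 by library size alone and between -0.058 and 0.0094 without a day. At day 7, CSPG4 was at -0.010 without the filter and between -0.064 and 0.073 without a library, NKX2-2 lay between -0.20 and 0.0079 without a library, and LHFPL3 was at 0.00037 by library size alone and between -0.40 and 0.47 without a library. For the difference of the changes, OLIG1 was at -0.012 in the shared fit and between -0.0064 and 0.068 without a library, and NKX2-2 lay between -0.022 and 0.10. Of 474 log2 fold changes of members recomputed under an alternative, 426 kept direction and side of the threshold, 30 lost a call, 3 gained a call and 15 turned sign.

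Over all genes, 4304 were called at day 5 and 2042 in the shared fit, 2742 and 51 for the difference of the changes (4452 at an adjusted p under 0.05), 3 and 0 at day 0 (8 at an adjusted p under 0.05, 56 without the filter, 6 with the block, 0 to 17 without a library), and 0 at days 1 to 3 (3 at an adjusted p under 0.05, 12 with DESeq2, 1 with its size factors, 517 without the filter, up to 256 without a day). At day 7, 0 became 3 with DESeq2, 27 without the filter and up to 32 without a library. For the time course, 6 became 30 at an adjusted p under 0.05, 249 with DESeq2, 10 with its size factors, 11 by library size alone, 1217 without the filter, 10 with at least 10 counts in every library, 0 to 894 without a library, 2002 without both libraries labelled day 7 repeat 2 and 1984 without the 4 of day 7. A lone library left in a group was taken to vary as the remaining groups do.

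Libraries of a shared repeat number did not deviate together, and 0 of 6 at day 0 and 1 of 6 at day 5 correlated best with their own number in the other treatment group. With the replicate block, 2 members were called at day 5, 0 at day 0 and 0 at day 7. In vehicle 3 were called, 4 with LLY-283 and 1 in the difference of the changes. Of all genes, that fit called 4401 of 16491 at day 5, 6 of 17780 at day 0 and 0 of 16826 at day 7. It called 6490 of 17106 in vehicle, 7918 of 17341 with LLY-283 and 2435 of 18369 in the difference of the changes. The 4 members of few counts set the limit of depth.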

Other observations

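Genes within 250000 bases of OLIG1 and OLIG2 on chromosome 21 (GRCh38) were looked at because the 2 factors differed in sign at day 5. IFNAR2, a chain of the type I interferon receptor, had a log2 fold change of 0.04 (SE 0.099, adjusted p = 0.808) at day 5 and IL10RB, a receptor chain for interleukins, of 0.08 (SE 0.081, adjusted p = 0.471), by edgeR. IL10RB was called higher from day 0 to day 5 in vehicle (0.29, adjusted p = 0.00129) and with LLY-283 (0.42, adjusted p = 0.000236), as were OLIG1 and OLIG2. The gene ENSG00000227757, annotated on the strand opposite OLIG1 and overlapping its exon, had a median of 38 counts against 3094.5 for OLIG1, and a log2 fold change of 0.45 (SE 0.21, adjusted p = 0.100) at day 5. Most other genes in this window had too few counts to be tested at day 5. None of the few tested was called between treatment groups, where 26.1% of all genes tested were called. So few genes cannot show whether the difference is particular to OLIG1 and OLIG2.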
